A study of Homo sapiens with 18 samples.

Results

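The genes described here are those whose difference between Holoclone and Paraclone cells was not the same in the pancreatic ductal adenocarcinoma (PDAC) lines Panc1 and Panc89. They were chosen by the interaction of line and cell variant on log2(TPM + 1) values, that is, by the Holoclone minus Paraclone difference in Panc89 (its clone change) minus the clone change in Panc1. In limma-trend with Benjamini-Hochberg adjustment, 5655 of 16093 genes tested had an adjusted p under 0.05 for this interaction. Of these, 791 genes passed the same threshold in both lines with opposite signs, and 613 further genes changed in 1 line with little change in the other, although both lines expressed them. Ranked by the smaller of the changes in both lines, the leading opposite genes included the adhesion molecule *CADM1* and the transcription factor *SOX21*, both low in Panc1 Holoclone cells and high in Panc89 Holoclone cells, and the iron reductase *CYBRD1*, which had the reverse pattern.

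RNA of 18 cultures was sequenced, with parental, Holoclone and Paraclone cells of each line in 3 replicates taken from different cell passages. Panc1, a human cell line derived from a primary PDAC, is the mesenchymal-like model of the study. The epithelial model, Panc89, was derived from a metastasis to a lymph node. Holoclone and Paraclone cells of both lines were grown from single cells of the parental line and expanded without any further treatment. The 12 Holoclone and Paraclone libraries enter the interaction, while the 6 parental libraries add only to the estimate of the residual spread and to the filter on low values, and their means do not enter the interaction. Each cell variant is represented by passages of a clonally derived culture, so a difference that belongs to the Holoclone or Paraclone phenotype and one that belongs to the particular clone cannot be told apart, and the p-values measure the spread between passages.

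A holoclone is the compact, tightly packed colony that a cell with high self-renewal forms in culture, and a paraclone is the loose, scattered colony of a cell with little proliferative potential left. In carcinoma lines holoclones are commonly regarded as enriched in cancer stem cells (CSCs). Epithelial-mesenchymal transition (EMT) is the process by which epithelial cells lose junctions and gain motility, and its regulators ZEB1 and ZEB2 repress epithelial genes, whereas the factors OVOL2 and GRHL2 maintain them.

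The deposited values keep no read totals, so the depth of a library is unknown and no counting interval can be given. Raised back from the logarithm, the values of each of the 12 clone libraries summed to between 985339 and 988066 TPM, and 12860 to 13951 genes reached 1 TPM. Panc89 Paraclone replicate 2 and Panc89 Holoclone replicate 1 lay farthest from the mean of their groups, and results that rest on them are given without them below. In bulk RNA, fewer cells that express a gene and less of its RNA in each cell cannot be told apart. All changes are on the log2(TPM + 1) scale, on which genes near or below 1 TPM show smaller changes than their ratio.

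**Figure D1:**
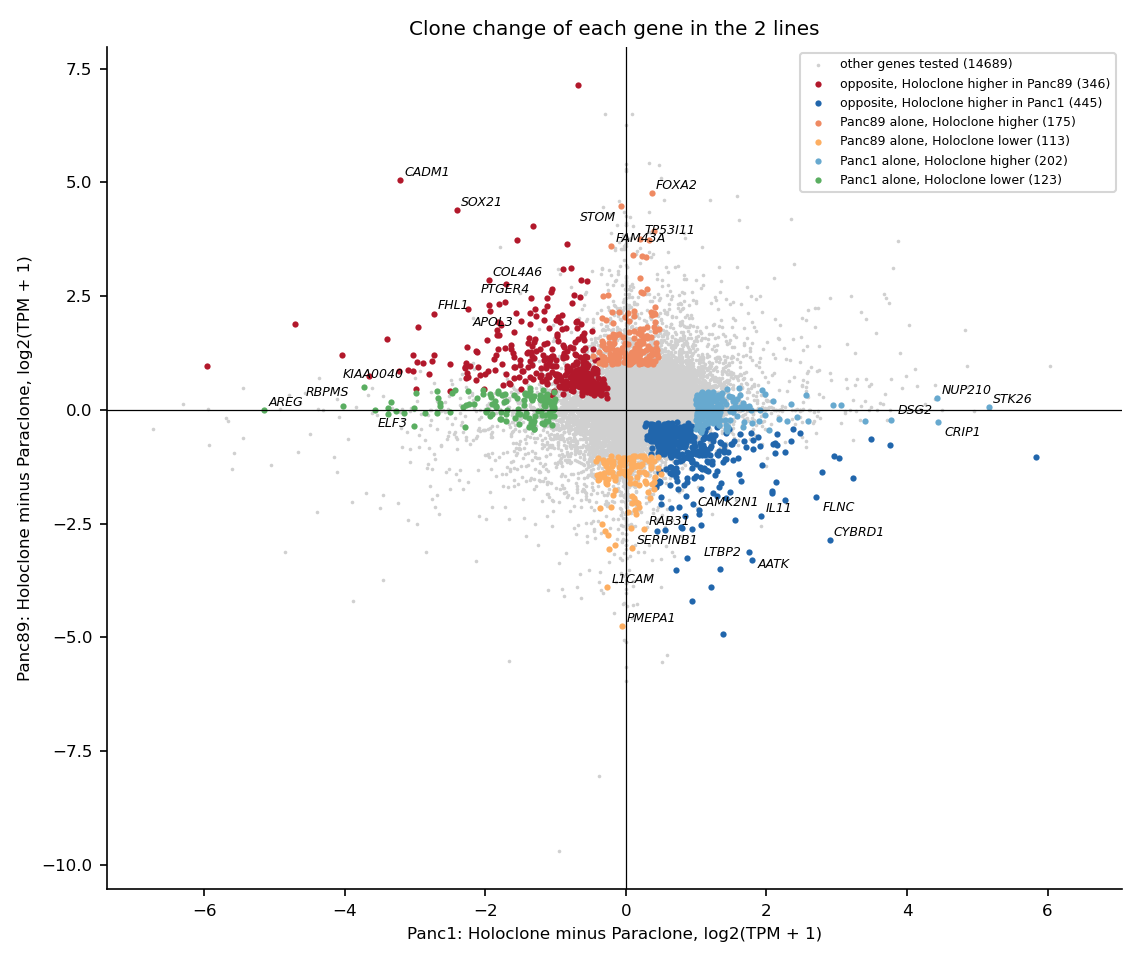
Clone change (Holoclone minus Paraclone, log2(TPM + 1), mean of 3 libraries against 3) of the 16093 genes tested, in Panc1 on the horizontal and in Panc89 on the vertical axis. The 346 red and 445 dark blue genes lie at the upper left and the lower right, where the lines moved in opposite directions, and the 4 lighter classes lie along the axes, where 1 line moved.

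Of the 5655 genes called for the interaction (35.1% of those tested), 2376 had the higher clone change in Panc89 (14.8%) and 3279 the lower one (20.4%). In Panc1, the clone comparison called 6006 genes (37.3%), 4402 higher (27.4%) and 1604 lower (9.97%) in Holoclone cells. In Panc89 it called 5746 genes (35.7%), with 3606 higher (22.4%) and 2140 lower (13.3%). Most of the 5655 genes were called in a single line, 2223 in Panc1 and 2074 in Panc89. A further 303 genes were called in both lines with the same sign and differed in size, 264 were called in neither line, and the 791 opposite genes made up 13.99% of the total.

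The median clone change of all genes tested was 0.19 in Panc1 and 0.09 in Panc89, so that the median interaction was −0.11 and not 0. Under upper quartile scaling this median became 0.00332 and the share of called genes with the higher clone change in Panc89 went from 42.02% to 51.5%. The values below are therefore best read against these medians.

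Opposite genes fell into a class of 346 (2.15% of genes tested) that were higher in Panc89 Holoclone and lower in Panc1 Holoclone cells than in the Paraclone cells, and a class of 445 (2.77%) with the reverse signs. These classes follow from the rule, and their sizes of change are given as a description. In the first class the median clone change was −0.86 in Panc1 and 0.88 in Panc89, and 82 genes changed by more than 1 in both lines. In the second it was 0.74 and −0.70, with 50 genes beyond 1 in both. The balance of the classes depended on scaling, with 448 and 365 genes under upper quartile scaling and 451 and 362 under median-of-ratios scaling, where 571 and 528 of the 791 opposite genes kept their class. With the clone libraries alone, the classes held 286 and 340 genes, and 604 of the 791 kept their class. At the edge of the first class, *AMER1* was the last gene inside with a largest adjusted p of 0.04998 over its 3 comparisons, and *PTGR1* (−0.50 in Panc1 and 0.43 in Panc89) the first outside with 0.0503. For the second class, *CFLAR* stood just inside with 0.0496 and *RAB11FIP1* just outside with 0.05002.

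*CADM1*, an immunoglobulin-like adhesion molecule (chromosome 11, 115169218 to 115504957), had the largest interaction of the opposite genes named here. Its TPM were 2.69, 4.59 and 2.60 in Panc1 Holoclone and 43.6, 37.5 and 33.4 in Panc1 Paraclone cells. In Panc89 the order was turned round, with 80.1, 74.7 and 58.6 in Holoclone and 0.676, 1.32 and 1.59 in Paraclone cells. Genes named for a class had to show no overlap of Holoclone and Paraclone libraries where they moved. The lack of overlap in these genes thus follows from the choice. The clone change of *CADM1* was −3.21 (SE 0.235) in Panc1 against 5.05 in Panc89 (interaction 8.26, adjusted p = 1.58e-10 in limma-trend). *SOX21*, a transcription factor related to SOX2 (chromosome 13, 94709622 to 94712545), was at 1.78, 2.33 and 1.61 TPM in Panc1 Holoclone and 21.5, 13.2 and 10.4 in Panc1 Paraclone cells. In Panc89 it was at 93.8, 43.3 and 25.1 in Holoclone and 0.741, 1.95 and 1.32 in Paraclone cells. The Panc89 Holoclone libraries differed among themselves by more than 3-fold, yet each lay above every other clone library of both lines (clone change −2.41 and 4.39, interaction 6.80, adjusted p = 2.39e-07).

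*FHL1*, a LIM domain protein, was at 11.7 TPM or more in every clone library. It was at 18.9, 19.5 and 18.1 TPM in Panc1 Holoclone and 104, 143 and 151 in Panc1 Paraclone cells, and at 86.3, 89.8 and 89.8 against 31.5, 11.7 and 20.5 in Panc89. The changes of −2.73 in Panc1 and 2.12 in Panc89 thus came from well expressed values in all groups (adjusted p of the interaction 1.26e-07 in limma-trend). *PTGER4*, a receptor for prostaglandin E2, was at 10.7, 16.9 and 10.5 TPM in Panc1 Holoclone and 57.7, 50.6 and 45.1 in Panc1 Paraclone cells. In Panc89 its Holoclone libraries were at 21.5, 20.5 and 21.9 and its Paraclone libraries at 2.15, 8.42 and 2.16. There replicate 2 was the highest of the Paraclone libraries and, as the choice of genes required, below all Holoclone libraries. Its interaction was 4.25, and the median interaction of the 50 tested genes around it was 0.49.

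*COL4A6* encodes a chain of the type IV collagen of basement membranes and lies next to *COL4A5* on chromosome X. It was at or under 0.118 TPM in the Panc1 Holoclone libraries and at 3.66, 3.12 and 2.94 in the Panc1 Paraclone libraries, against 39.3, 37.9 and 35.4 in the Holoclone and 2.50, 7.98 and 3.86 in the Paraclone cells of Panc89. *COL4A5* went the same ways, with clone changes of −2.89 in Panc1 and 1.04 in Panc89. *APOL3*, of the apolipoprotein L family, changed by −2.25 in Panc1, where Holoclone libraries were at 1.94, 1.14 and 1.25 and Paraclone libraries at 8.52, 10.9 and 12.3 TPM, and by 2.22 in Panc89 (15.3, 7.49 and 7.78 against 0.907, 2.52 and 0.794). *APOL3* lies on chromosome 22, and the 50 tested genes around it had a median interaction of 0.88, against 4.47 for the gene itself.

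**Figure D2:**
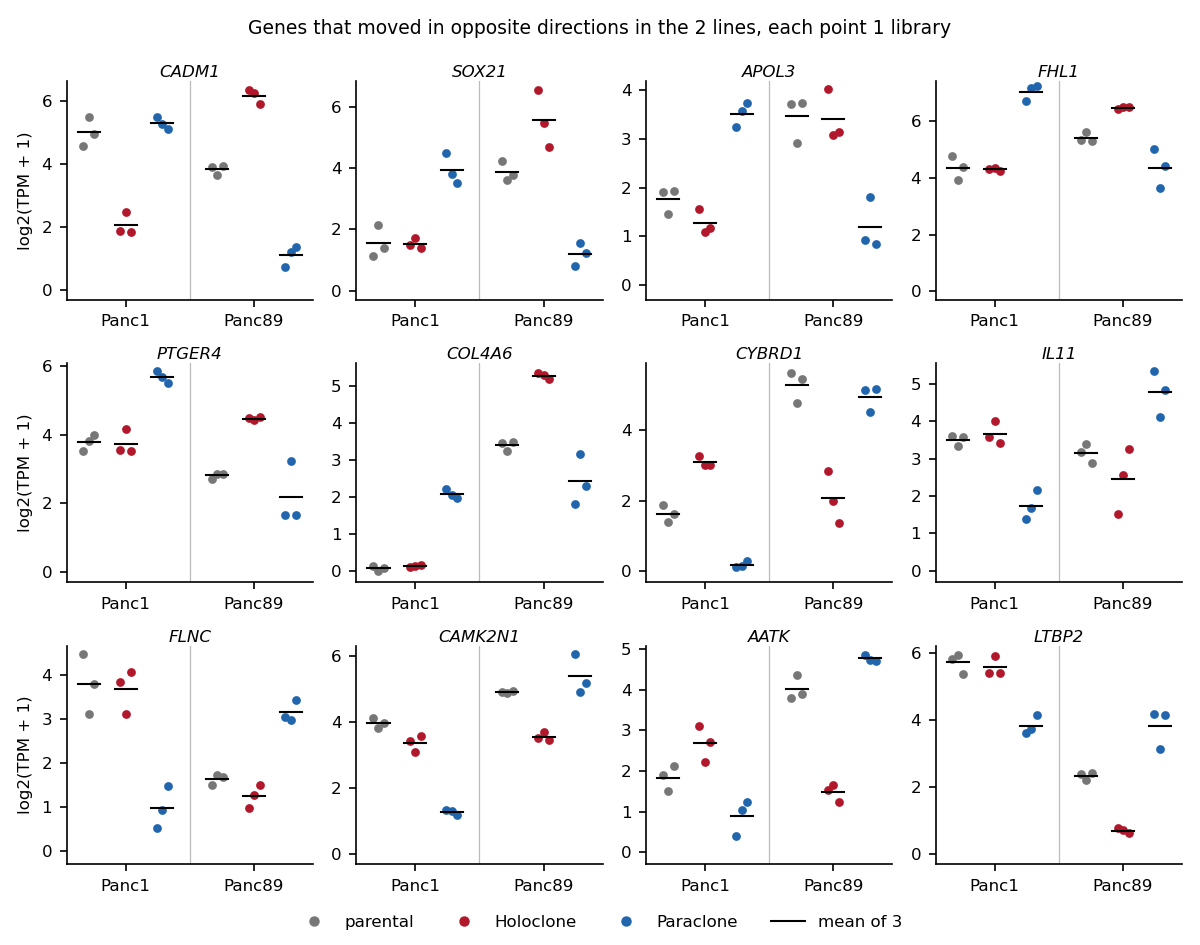
Log2(TPM + 1) of the 12 named opposite genes in all 18 libraries, with 1 point per library and a line at the mean of 3. In each panel the red Holoclone and blue Paraclone points change places between Panc1 on the left and Panc89 on the right. They do so without overlap, which the choice of genes required. The gray parental points entered the choice of genes only through the filter and the residual spread.

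In the class with the higher Holoclone value in Panc1, *CYBRD1* (chromosome 2, 171522247 to 171558129), a reductase of iron uptake, was at 8.54, 7.05 and 7.02 TPM in Panc1 Holoclone and 0.0834, 0.104 and 0.237 in Panc1 Paraclone cells. In Panc89 the Holoclone libraries were at 6.22, 3.01 and 1.56 and the Paraclone libraries at 34, 21.8 and 34.5. The Panc89 Paraclone cells thus held the highest and the Panc1 Paraclone cells the lowest values, and the changes of 2.90 (SE 0.307) and −2.86 (SE 0.307) were of nearly equal size. *IL11*, a cytokine of the interleukin 6 family, was at 10.96, 15.1 and 9.65 against 1.60, 2.20 and 3.51 TPM in Panc1 and at 1.87, 4.97 and 8.59 against 39.96, 16.5 and 27.9 in Panc89. Parental cells were nearer to Holoclone than to Paraclone cells in both lines, at 11.2, 9.20 and 11.03 in Panc1 and 8.16, 9.50 and 6.43 TPM in Panc89, and the parental lines did not differ past the threshold (difference −0.36, adjusted p = 0.412 in limma-trend, 95% interval −1.15 to 0.43).

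*FLNC*, an actin cross-linking filamin, was at 13.5, 7.65 and 15.8 TPM in Panc1 Holoclone and 0.430, 0.904 and 1.78 in Panc1 Paraclone cells, and at 0.969, 1.42 and 1.84 and 7.26, 6.94 and 9.88 in the corresponding Panc89 cells. *CAMK2N1*, an inhibitor of calcium/calmodulin-dependent kinase II, fell in Panc89 Holoclone cells by 1.83 on the log2 scale, from 65.6, 29.1 and 35.5 to 10.4, 12 and 9.98 TPM. In Panc1 it rose by 2.08, from 1.54, 1.503 and 1.27 to 9.64, 7.61 and 10.96. The clone changes of *FLNC* were 2.71 and −1.91. Neither *FLNC* nor *CAMK2N1* had overlapping Holoclone and Paraclone libraries in either line, as the choice of genes required.

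*AATK*, a membrane-bound kinase, was at 7.61, 3.68 and 5.55 against 0.314, 1.04 and 1.37 TPM in Panc1 and at 1.89, 2.14 and 1.37 against 27.99, 25.6 and 25.3 in Panc89, with Panc89 Paraclone libraries more than 10-fold above all Panc89 Holoclone libraries. *LTBP2*, a matrix protein of the latent TGF-beta binding family, was at 42.1, 60.1 and 41.7 against 11.2, 12.4 and 16.9 in Panc1 and at 0.707, 0.657 and 0.542 against 17.1, 7.90 and 16.9 TPM in Panc89. Interactions were −5.09 for *AATK* and −4.88 for *LTBP2*. The 50 tested genes around each had median interactions of −0.52 on chromosome 17 and −0.75 on chromosome 14.

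The bases in front of the start site are shown for the first 3 named genes of each opposite class in the promoter table of RefSeq (GRCh38.p14), to set their composition side by side. Each window holds the 250 bases before the start, 5′ to 3′ on the strand of the gene, and capitals mark letters of a searched motif on either strand.
SOX21: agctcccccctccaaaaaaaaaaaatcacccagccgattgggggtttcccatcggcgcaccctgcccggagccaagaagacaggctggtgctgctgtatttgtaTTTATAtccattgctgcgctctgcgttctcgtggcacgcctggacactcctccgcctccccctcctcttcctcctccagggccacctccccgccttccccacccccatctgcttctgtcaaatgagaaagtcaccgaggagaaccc
FHL1: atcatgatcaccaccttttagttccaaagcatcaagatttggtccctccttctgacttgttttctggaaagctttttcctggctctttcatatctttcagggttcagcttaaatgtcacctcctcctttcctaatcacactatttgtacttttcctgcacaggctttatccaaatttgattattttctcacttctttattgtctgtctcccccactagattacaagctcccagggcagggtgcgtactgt
PTGER4: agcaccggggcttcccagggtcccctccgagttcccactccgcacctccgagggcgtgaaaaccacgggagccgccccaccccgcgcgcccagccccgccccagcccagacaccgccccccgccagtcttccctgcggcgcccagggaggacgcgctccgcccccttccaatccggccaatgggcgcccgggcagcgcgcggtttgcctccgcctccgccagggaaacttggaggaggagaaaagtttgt
CYBRD1: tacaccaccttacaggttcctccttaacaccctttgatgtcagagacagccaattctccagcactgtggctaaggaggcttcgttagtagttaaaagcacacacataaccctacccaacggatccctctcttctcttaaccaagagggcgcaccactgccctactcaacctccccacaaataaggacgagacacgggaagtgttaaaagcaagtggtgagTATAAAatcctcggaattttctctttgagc
IL11: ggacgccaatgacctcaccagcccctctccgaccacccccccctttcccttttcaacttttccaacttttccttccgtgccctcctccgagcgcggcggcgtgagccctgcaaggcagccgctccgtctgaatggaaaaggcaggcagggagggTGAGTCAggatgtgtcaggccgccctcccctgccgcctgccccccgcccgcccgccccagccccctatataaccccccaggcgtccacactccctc
FLNC: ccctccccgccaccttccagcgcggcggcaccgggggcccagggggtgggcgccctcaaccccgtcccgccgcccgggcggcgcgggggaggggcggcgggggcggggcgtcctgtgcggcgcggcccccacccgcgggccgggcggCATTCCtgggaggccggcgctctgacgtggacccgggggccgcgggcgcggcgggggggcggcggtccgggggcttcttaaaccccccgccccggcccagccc
The windows are chr13:94712546-94712795 on the minus strand (*SOX21*), chrX:136146452-136146701 on the plus strand (*FHL1*), chr5:40679665-40679914 on the plus strand (*PTGER4*), chr2:171521983-171522232 on the plus strand (*CYBRD1*), chr19:55370464-55370713 on the minus strand (*IL11*) and chr7:128830156-128830405 on the plus strand (*FLNC*). The G and C content ran from 41.6% with 1 CpG in *FHL1* to 85.6% with 38 CpG in *FLNC*. The window of *CYBRD1* holds TATAAA starting 30 bases before the start, that of *SOX21* holds the same letters on the other strand at 146 bases, that of *IL11* holds the AP-1 motif TGACTCA on the other strand at 96 bases, and that of *FLNC* holds the TEAD motif GGAATG on the other strand at 103 bases. None of the 6 motifs searched was found in the windows of *FHL1* and *PTGER4*, which says only that these letters are not there.

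Over whole classes, windows were matched for 262 of the 346 and 336 of the 445 opposite genes and for 11821 of all genes tested. The TATA box letters TATAAA stood in 8.78% of the windows of the class higher in Panc89 Holoclone and in 3.57% of the class higher in Panc1 Holoclone cells, against 5.81% of all. The E-box CAGGTG, which ZEB and SNAI factors bind, was in 17.9% and 19.05% (all 16.3%), the TEAD motif GGAATG in 7.25% and 11.9% (all 9.50%) and the AP-1 motif TGACTCA in 1.91% and 1.79% (all 2.74%). Every motif was searched on both strands, where TGACTCA read on the other strand is TGAGTCA, and these shares are a description without a test. Among the classes of 1 line, GGAATG was in 8.09% and 10.1% of the windows of genes higher and lower in Panc89 Holoclone cells, and in 2.31% and 5.94% for Panc1.

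Genes that moved in 1 line were required to be called there with a change over 1, to have a change in the other line that was not called and whose 95% interval lay within −1 to 1, and to average at least 5 TPM over the clone libraries of each line. In Panc89 alone, 175 genes were higher in Holoclone cells (1.09% of genes tested) and 113 were lower (0.702%). In Panc1 alone, 202 were higher (1.26%) and 123 lower (0.764%). The numbers of the Panc89 classes depended on single libraries, with 281 higher genes without Panc89 Paraclone replicate 2 and 190 lower genes without Panc89 Holoclone replicate 1. Those of the Panc1 classes depended on scaling, with 80 higher and 192 lower genes under upper quartile scaling. Of the 613 genes that changed in 1 line, 377 kept their class under upper quartile and 355 under median-of-ratios scaling.

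Among the genes higher in Panc89 Holoclone cells alone, *FOXA2*, a pioneer factor of endoderm and foregut (chromosome 20, 22580998 to 22585455), was at 37.03, 62.3 and 71.3 TPM in Holoclone and 1.30, 0.783 and 1.14 in Paraclone cells. In Panc1 its libraries were at 31.6, 29.96 and 31.7 in Holoclone and 27.7, 22.1 and 22.1 in Paraclone cells. The Panc89 change was 4.76 (SE 0.205) and the Panc1 change 0.37 (95% interval −0.07 to 0.81), with an interaction of 4.39 (adjusted p = 2.27e-08 in limma-trend). *STOM*, the membrane scaffold protein stomatin, was at 33.8, 42.1 and 32.6 TPM in Panc89 Holoclone and 0.715, 0.488 and 0.811 in Panc89 Paraclone cells, while all 6 Panc1 clone libraries lay between 32.1 and 48.9. The Panc89 Paraclone libraries were thus the 3 lowest clone libraries for *STOM*.

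*FAM43A* and the p53-induced gene *TP53I11* were likewise lowest in Panc89 Paraclone cells, and highest in Panc1. *FAM43A* was at 24.4, 17.2 and 17.4 in the Holoclone and 0.761, 0.560 and 0.733 in the Paraclone libraries of Panc89 and at 40.7 to 59.7 TPM in the Panc1 clone libraries. *TP53I11* was at 48.2, 35.8 and 25.7, at 2.10, 1.12 and 1.95 and at 84.8 to 129 TPM in these groups. The 50 tested genes around *FAM43A* had a median interaction of the opposite sign (−0.55). The interactions were 4.54 for *STOM*, 3.81 for *FAM43A* and 3.56 for *TP53I11*.

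Of the genes lower in Panc89 Holoclone cells alone, *PMEPA1*, a target and feedback inhibitor of TGF-beta signaling, was at 0.728, 1.98 and 1.92 TPM in Holoclone and 84.9, 50.7 and 64.96 in Paraclone cells. The Panc1 clone libraries lay between 63.96 and 85.2 TPM, so that the Panc89 Holoclone libraries lay below all other clone libraries. *L1CAM*, a neural adhesion molecule and one of the marker genes of the study, was at 2.80, 1.98 and 1.90 against 35.4, 85.8 and 32.4 TPM in Panc89 and at 192, 199.7 and 174 against 239, 244 and 198 in Panc1. The changes were −3.88 (SE 0.262) in Panc89 and −0.26 (95% interval −0.82 to 0.29) in Panc1.

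*SERPINB1*, an inhibitor of neutrophil proteases, had 323, 299 and 279 TPM in the Holoclone and 3470, 1480 and 2931 in the Paraclone cells of Panc89, against 38.7 to 49.9 in the Panc1 clone libraries. *RAB31*, a small GTPase of vesicle traffic, had 37, 30.9 and 29.7 and 255, 142 and 236 TPM against 76.2 to 106. Unlike in *PMEPA1*, the Holoclone cells of Panc89 kept *SERPINB1* above every Panc1 clone library. Around *SERPINB1*, the 50 tested neighbors had a median Panc89 change of −0.42.

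In Panc1, the kinase gene *STK26* on chromosome X was at 44.98, 51.7 and 44.8 TPM in Holoclone and 0.341, 0.372 and 0.297 in Paraclone cells, and the Panc89 clone libraries lay between 15.7 and 24.6 TPM. Its Panc1 change of 5.17 (SE 0.158) was the largest of the class, with a Panc89 change of 0.07 (95% interval −0.27 to 0.41; interaction −5.10, adjusted p = 3.11e-10 in limma-trend). *CRIP1*, a LIM domain protein, was at 604, 540.5 and 526 against 24.1, 27.2 and 23.1 TPM in Panc1 and between 81.4 and 206 in Panc89. The genes around *CRIP1* on chromosome 14 had a median Panc1 change of 0.73, against 4.44 for *CRIP1*.

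*NUP210*, a membrane protein of the nuclear pore, was at 34.5, 35.02 and 29.99 against 0.450, 0.473 and 0.844 TPM in Panc1 clones. The desmosomal cadherin *DSG2* was at 15.3, 21.9 and 14.97 against 0.446, 0.284 and 0.258. In all 6 Panc89 clone libraries *NUP210* lay between 16 and 47.5 and *DSG2* between 55.5 and 78.2 TPM. For these 4 genes, then, the Panc1 Paraclone libraries lay below all other clone libraries.

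Lower in Panc1 Holoclone cells alone was *AREG*, which encodes the EGF receptor ligand amphiregulin (chromosome 4, 74445136 to 74455005). It was at 0.0864, 0.643 and 0.0507 TPM in Panc1 Holoclone and 49.9, 45.1 and 34.4 in Panc1 Paraclone cells, and at 281, 857 and 1097 and 860.2, 524 and 584 in Panc89. The Panc89 Holoclone libraries spread about 4-fold, and the interval of the Panc89 change ran from −0.94 to 0.95, against a Panc1 change of −5.14 (interaction 5.15, adjusted p = 1.48e-05). *ELF3*, an epithelial transcription factor of the ETS family, was at 1.92, 1.46 and 0.905 against 18.2, 29.8 and 37.5 TPM in Panc1 and between 187 and 335 in Panc89.

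*RBPMS*, an RNA-binding regulator of splicing, was at 0.286, 0.911 and 0.572 against 24.7, 20.9 and 28.7 TPM in Panc1 and between 4.30 and 12.2 in Panc89. *KIAA0040* was at 0.170, 0.121 and 0.151 against 17.9, 13.6 and 11.8 in Panc1, while its Panc89 values lay between 14.7 and 34.6. In *RBPMS*, the Panc1 Paraclone cells were above all Panc89 clone libraries, whereas in *AREG*, *ELF3* and *KIAA0040* they did not exceed the highest Panc89 library.

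**Figure D3:**
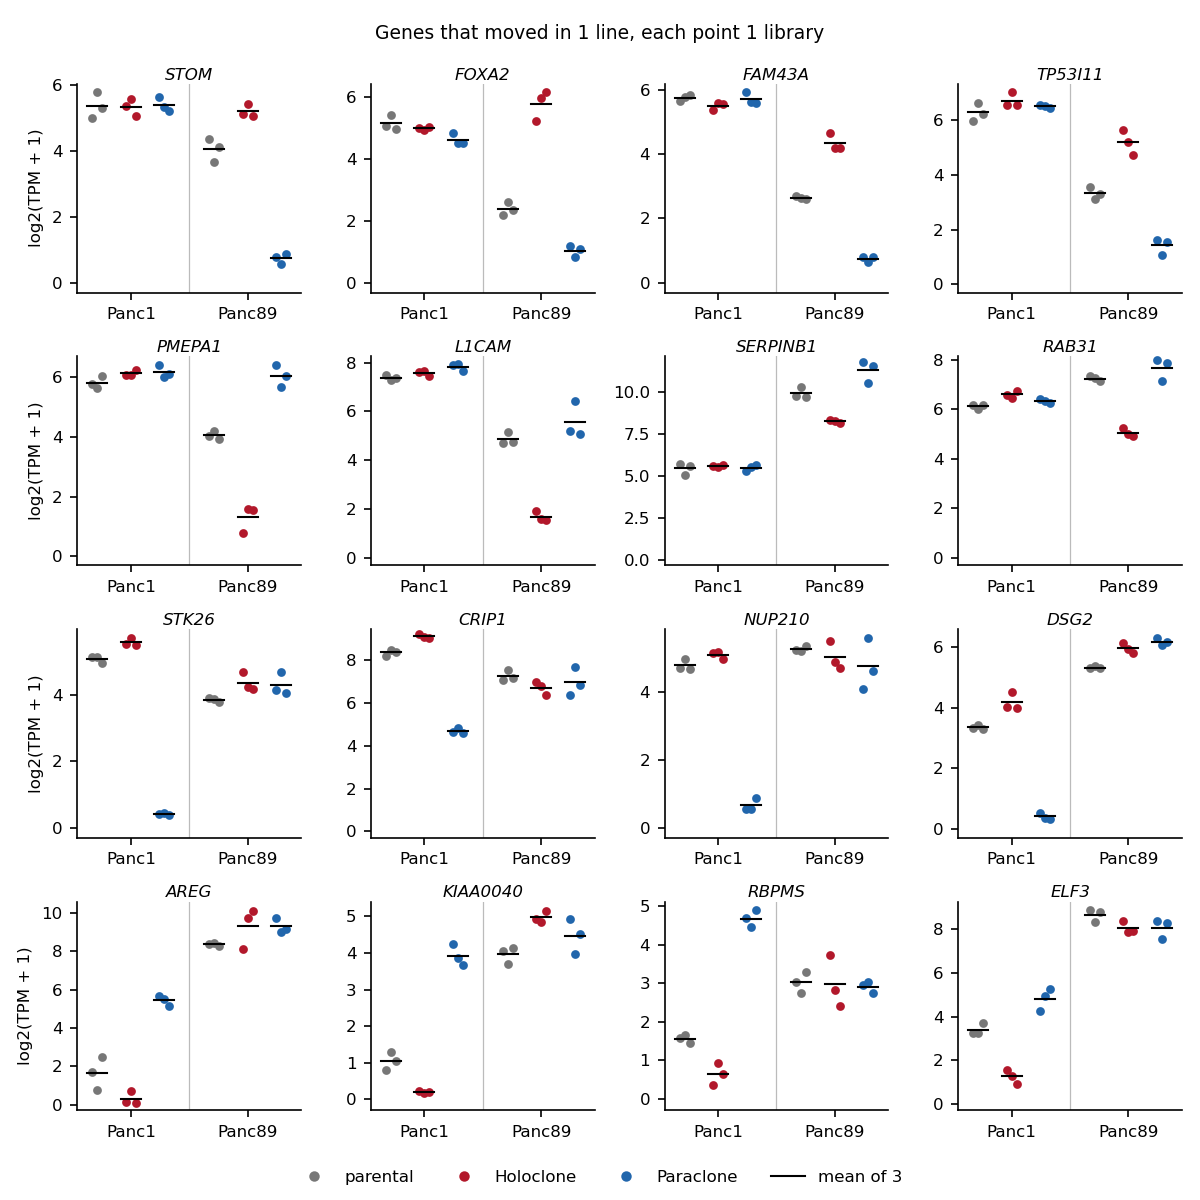
Log2(TPM + 1) of the 16 genes that moved in 1 line, with 1 point per library and a line at the mean of 3. In the upper 8 panels the red Holoclone and blue Paraclone points part in Panc89, and in the lower 8 they part in Panc1. In the other line they lie close together. This pattern follows from the choice of genes.

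The 8 CSC and EMT marker genes that the study follows mostly differed between the lines in their clone change, with 2 higher, 5 lower and 1 not called in the interaction. *SOX2*, a stem cell transcription factor, was at 64.3, 32.5 and 17.3 TPM in Panc89 Holoclone and 0.252, 0.909 and 0.981 in Panc89 Paraclone cells. In the Panc1 clones it was at or under 0.376 TPM in all 6 libraries, so that it does not count as expressed in both lines (interaction 4.02, adjusted p = 1.04e-05 in limma-trend). *NES*, the intermediate filament nestin, was at 30.5, 21.8 and 31.3 TPM in Panc1 Holoclone and 8.00, 4.17 and 4.04 in Panc1 Paraclone cells, and at 0.109 to 1.40 in the Panc89 clones (interaction −2.19, adjusted p = 5.75e-04).

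The epithelial factor *OVOL2* was at 1.99, 2.90 and 2.73 against 11.9, 12.5 and 12.3 TPM in Panc89 and at most 0.856 in the Panc1 clones, with changes of −1.91 and 0.50. *ZEB2*, at 0.566, 0.814 and 0.885 against 0.278, 0.182 and 0.242 TPM in Panc1 and 0.765, 0.5005 and 0.467 against 2.78, 1.77 and 1.74 in Panc89, changed by 0.50 and −0.96. Both were called in opposite directions, at levels around or under 1 TPM in Panc1. *ZEB1* had a clone change of 0.23 in Panc1, where all clone libraries were between 12.7 and 17.01 TPM, and −0.95 in Panc89, where they were between 0.0420 and 3.00. Its interaction of −1.17 (adjusted p = 0.0232) did not pass under upper quartile scaling, under median-of-ratios scaling or with the clone libraries alone (adjusted p from 0.0618 to 0.0643), nor without Panc89 Holoclone replicate 2 (0.0542), and it was −0.75 without Panc89 Paraclone replicate 1.

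*CDH1*, the adherens junction cadherin, was at 0.671, 1.49 and 0.808 against 2.10, 2.89 and 3.51 TPM in Panc1 and at 90.03, 88.7 and 107 against 100.2, 94 and 99.8 in Panc89, an interaction of 0.90 (adjusted p = 0.0154 in limma-trend). *VIM*, the mesenchymal filament vimentin, was between 2021 and 5044 TPM in the Panc1 and between 0.0617 and 0.457 in the Panc89 clone libraries. Its interaction of 0.53 was not called (adjusted p = 0.0679), but was under both other scalings.

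Gene lists of pathways and protein families were counted in the same way, and each count of members in the interaction is to be read against 14.8% higher and 20.4% lower among all genes tested, whose median interaction was −0.11. Counts within Panc1 stand beside 27.4% higher and 9.97% lower, and counts within Panc89 beside 22.4% higher and 13.3% lower among all genes. No test of a list as a whole was made. Antigen presentation had the largest share of higher members of the lists drawn in the plot of gene lists, with 15 of 20 higher and 0 lower (75% higher, median interaction 1.23). MHC class I molecules carry peptides that the proteasome cuts, the TAP transporter moves and the ERAP peptidases trim. In Panc1, 10 members were lower and 1 higher in Holoclone cells, whereas in Panc89 11 were higher and 0 lower, and 6 belonged to the opposite genes. By role, 5 of 6 class I genes, 8 of 9 genes of peptide processing and 2 of 5 class II genes were higher.

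The aminopeptidase *ERAP1* was at 23.1, 20.9 and 22.9 TPM in Panc1 Holoclone and 63.9, 57.2 and 60.99 in Panc1 Paraclone cells, and at 29.2, 21.8 and 22.6 against 7.25, 11.97 and 10.3 in Panc89. Its neighbor *ERAP2* was at 4.06, 3.70 and 3.81 against 40.3, 38.7 and 33.1 in Panc1 and at 108, 52.04 and 39.01 against 17.6, 57.7 and 22.6 in Panc89, where the groups overlapped through Paraclone replicate 2. The immunoproteasome subunit *PSMB8* was at 30.9, 27.5 and 28.8 against 67.5, 65 and 59.9 TPM in Panc1 and at 205, 179.5 and 183 against 59.9, 117 and 86.8 in Panc89. The interactions were 2.66 for *ERAP1*, 4.03 for *ERAP2*, 2.26 for *PSMB8* and 2.69 for *PSMB9*, another subunit of the immunoproteasome. In each of these genes Panc89 Paraclone replicate 2 was the highest of its group, and without it the list again had 15 higher members and 0 lower. Over all alternatives the list had 13 to 16 higher members, and at an unadjusted p under 0.05 in limma-trend 16 were higher and 0 lower. The HLA genes are alike in sequence and differ between alleles, so reads can be divided among them and their values are uncertain.

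The interferon-stimulated response element, searched as GAAA, any 2 bases and GAAA on both strands, stood in 6 of 15 matched windows of the list (40%), against 2.39% of all windows, and 5 of these 6 genes (*B2M*, *PSMB10*, *TAP1*, *TAP2* and *TAPBP*) were higher in the interaction. The windows of *PSMB10* (chr16:67936851-67937100 on the minus strand) and *TAP1* (chr6:32853705-32853954 on the minus strand), the members with the motif and the largest interactions (1.56 and 1.02), are printed to show its place, in capitals. The 5 genes were picked for the motif after their values were seen.
PSMB10: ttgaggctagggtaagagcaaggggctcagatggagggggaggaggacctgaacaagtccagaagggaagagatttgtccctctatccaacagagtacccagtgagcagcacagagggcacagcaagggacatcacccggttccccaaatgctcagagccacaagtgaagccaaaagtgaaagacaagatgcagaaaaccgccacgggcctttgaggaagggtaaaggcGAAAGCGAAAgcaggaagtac
TAP1: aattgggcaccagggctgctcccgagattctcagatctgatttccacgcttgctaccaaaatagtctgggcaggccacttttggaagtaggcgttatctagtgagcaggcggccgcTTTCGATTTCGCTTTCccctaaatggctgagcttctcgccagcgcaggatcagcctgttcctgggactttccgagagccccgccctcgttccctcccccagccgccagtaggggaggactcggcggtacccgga
In *PSMB10* the motif begins 21 bases before the start, and in *TAP1* overlapping copies on the other strand begin 134 and 128 bases before it. The list of interferon-stimulated genes had 7 higher and 4 lower of 44 tested members (15.9% and 9.09%), near or below the shares of all genes. These counts rested on single Panc89 libraries, with 12 higher without Paraclone replicate 2, 9 lower without Holoclone replicate 3 and 7 lower without Paraclone replicate 1, and the median interaction turned from 0.31 to −0.04 and −0.20 in the last 2. *IFI44*, at 1.29, 0.829 and 0.363 against 12.9, 14.4 and 13.1 TPM in Panc1 and 133, 123 and 219.9 against 70.8, 318 and 148 in Panc89, had an interaction of 3.05 and overlapping groups in Panc89. *IFI27*, which fell in Panc89 Holoclone cells by 3.29 on the log2 scale, had one of −3.67.

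NRF2 is the regulator of the response to oxidants. The list of its targets, which also holds 2 regulators, came next by share, with 15 of 24 higher and 1 lower (62.5% and 4.17%, median interaction 0.94). In Panc1, 9 were lower and 2 higher in Holoclone cells, and in Panc89 12 were higher and 2 lower. Without Panc1 Paraclone replicate 3, 5 were lower in Panc1. The glutathione peroxidase *GPX2* was at 53.1, 44.7 and 63.1 TPM in Panc89 Holoclone and 0.237, 0.494 and 0.137 in Panc89 Paraclone cells and was at or under 0.0563 TPM in the Panc1 clones (interaction 5.39). The aldo-keto reductases *AKR1C1* (3.11) and *AKR1C2* (3.61), near-identical genes between which reads could be divided, and the carbonyl reductase *CBR3* (2.54) followed. *NFE2L2*, the gene of NRF2 itself, was not called, with 0.77 in Panc1 and 0.98 in Panc89, and its repressor *KEAP1* was lower (−0.64), both named here after their values were seen. These are the 2 regulators counted in the list, and of its 22 other members 15 were higher and 0 lower. The antioxidant response element, searched as TGAC, any 3 bases and GC, stood in 5 of 18 matched windows of the list (27.8%) and in 12.4% of all windows. Of these genes, *CBR1*, *GPX2* and *PGD* were higher in the interaction, while *GCLM* and *TXNRD1* were not called.

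Of 24 glycolysis genes, 11 were higher and 2 lower in the interaction (45.8% and 8.33%, median interaction 0.61). In Panc1, 15 of them were lower and 0 higher in Holoclone cells, and in Panc89 5 were higher and 4 lower. The Panc89 counts rested on single libraries, with 4 higher and 7 lower without Panc89 Holoclone replicate 1, and 7 higher and 4 lower without Panc89 Paraclone replicate 2. At an unadjusted p under 0.05 in limma-trend, the number higher in Panc1 was again 0. The hexokinase *HK2*, the first enzyme of the pathway, was at 3.33, 2.69 and 3.38 against 10.3, 10.99 and 12.9 TPM in Panc1 and at 28.6, 36.3 and 41.04 against 18.5, 17.3 and 16.99 in Panc89, without overlap in either line and in opposite directions (−1.59 and 0.95). The aldolase *ALDOA* was at 877, 1032 and 838 against 2583, 2283 and 2303 TPM in Panc1, a change of −1.39, and changed by 0.55 in Panc89 (adjusted p = 0.0612 in limma-trend). Its relative *ALDOC* had an interaction of 2.68, and the enolase *ENO2* went against the list with −2.57.

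Genes of the ATF4 response and serine synthesis that were called were higher in Holoclone cells of either line. Of 24 tested, 10 were higher and 0 lower in Panc1, and 17 were higher and 0 lower in Panc89, while under upper quartile scaling 6 were higher and 1 lower in Panc1, and without Panc1 Paraclone replicate 1 the number higher was 6. At an unadjusted p under 0.05 in limma-trend, 1 member was lower in Panc1 and 0 in Panc89. The interaction was called for 7, each with the higher clone change in Panc89, among them the amino acid transporter subunits *SLC7A5* (0.78 in Panc1 and 2.32 in Panc89) and *SLC3A2* (0.42 and 2.27) and the stress gene *DDIT4* (−1.03, not called in Panc1, and 1.52). *CHAC1* (2.12) lost its call under some alternatives. Hypoxia genes had 5 higher and 3 lower of 19, led by the carbonic anhydrase *CA9* (−3.10) and the prolyl hydroxylase *EGLN3* (2.81). Without the genes of chromosomes 22, 14, 10 and 17, an alternative chosen after the data were seen, 1 was higher and 3 were lower of 15. *CA9* stays in this alternative, and the 50 tested genes around it on chromosome 9 had a median interaction of −1.05. Fatty acid synthesis had 3 and 1 of 15, among them the malic enzyme *ME1*, which changed by −1.13 and 0.99.

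**Figure D4:**
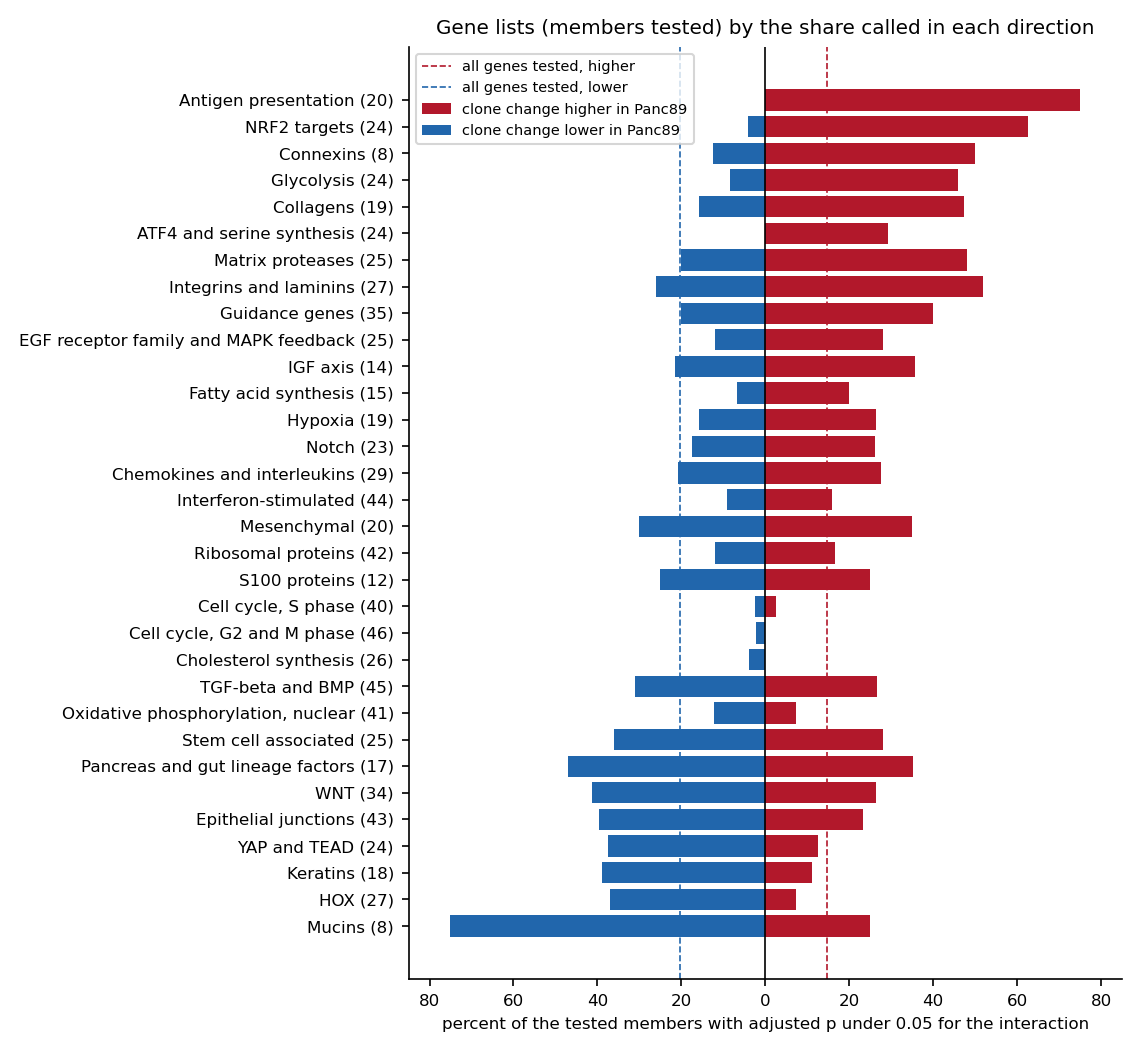
Share of the tested members of each gene list (number tested in brackets) whose clone change was higher (right, red) or lower (left, blue) in Panc89 than in Panc1, with dashed lines at 14.8% and 20.4% for all genes tested. Antigen presentation and NRF2 targets stand at the top with 75% and 62.5% higher, and mucins at the bottom with 75% lower.

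Among matrix and adhesion genes, 14 of 27 integrins and laminins were higher and 7 lower, 9 of 19 collagens higher and 3 lower, and 12 of 25 matrix proteases and their inhibitors higher and 5 lower. In Panc1, 16 integrins and laminins and 11 collagens were lower in Holoclone cells, against 2 and 1 higher. In Panc89, 12 integrins and laminins and 8 collagens were lower in Holoclone cells, against 2 and 4 higher. Called members of both lists were thus more often lower than higher in Holoclone cells of either line. In the interaction, laminins, which build basement membranes, were higher in 7 of 10 cases and lower in 1. Integrins, their receptors, were split into 7 and 6 of 17. *LAMA4* was at 3.42, 5.70 and 2.66 TPM in Panc1 Holoclone and 126, 110.1 and 102 in Panc1 Paraclone cells and between 0.162 and 0.933 in the Panc89 clones (interaction 4.95). The collagen receptor subunit *ITGA2* changed by −3.02 in Panc1 and by −0.35 in Panc89, where it was not called.

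The fibrillar collagen *COL5A2* was at 5.16, 8.57 and 6.32 against 412, 377 and 358 TPM in Panc1 and between 1.53 and 2.68 in Panc89 (interaction 5.42). The membrane-type protease *MMP14* belonged to the opposite genes, with 33.2, 21.5 and 26.6 against 79.5, 124 and 116 TPM in Panc1 and 302, 330.5 and 329.7 against 95.4, 38.4 and 95.9 in Panc89 (changes of −1.93 and 2.16). The collagenase *MMP1* was at 0.265, 0.525 and 0.334 against 204, 155 and 94.3 in Panc1, and in Panc89 its Paraclone libraries spread from 11.5 to 154 around Holoclone values of 37.02, 38.4 and 37.4. *TIMP3*, an inhibitor of such proteases on chromosome 22, was at 75.6, 86.9 and 68.3 TPM in Panc89 Holoclone and 0.00879, 0.00552 and 0.0144 in Panc89 Paraclone cells and at most 0.125 in the Panc1 clones. In the mesenchymal list (7 higher and 6 lower of 20), the matrix proteins *SPARC* (4.41) and *TNC* (3.98) were higher and caldesmon (*CALD1*, −2.71) and fibronectin (*FN1*, −2.69) lower. Axon guidance genes, many of which are ephrin receptors and semaphorins, had 14 higher and 7 lower of 35, with *NTN4* at 4.07, 5.91 and 4.70 against 45.4, 53.2 and 55.7 TPM in Panc1 and 46.2 to 69.8 in the Panc89 clones.

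Epithelial junction genes leaned the other way in the interaction, with 17 of 43 lower and 10 higher (39.5% and 23.3%). Within the lines, 20 were higher and 6 lower in Panc1 Holoclone cells, and 15 were higher and 9 lower in Panc89 Holoclone cells. The list held 4 opposite genes higher in Panc1 Holoclone cells and 2 of the reverse class. In the interaction, desmosomes, the spot junctions that anchor keratin filaments, contributed 5 lower of 9 genes. The linker *DSP* was at 15.8, 16.96 and 16.2 TPM in Panc1 Holoclone and 0.339, 0.267 and 0.248 in Panc1 Paraclone cells, and at 49.5, 38.7 and 43.7 against 90.03, 68.4 and 68.1 in Panc89. *DSC2* changed by 2.79 and −1.37, and the adhesion molecule *EPCAM*, at 28.98, 27.2 and 31.5 against 1.28, 1.61 and 2.30 TPM in Panc1 and 205, 165 and 165 against 251, 311 and 275 in Panc89, by 3.48 and −0.65. These 3 genes thus moved in opposite directions, by much more in Panc1 than in Panc89, while *DSG2* moved in Panc1 alone.

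Keratins had 7 lower and 2 higher of 18. The lowest interaction was that of the hair keratin *KRT81* (−8.73), at 0.155, 0.280 and 0.0595 TPM in Panc89 Holoclone and 1149, 700.5 and 1087 in Panc89 Paraclone cells and between 0.574 and 3.67 in Panc1. Since reads of similar keratin genes can be assigned to the wrong member, this value is uncertain. *KRT19*, a keratin of ductal epithelium, went against the list with −2.48 in Panc1 and 0.37 in Panc89. Mucins, the glycoproteins of the epithelial surface, were lower in 6 of 8 cases and higher in 2. *MUC1* was at 22.3, 22.8 and 20.8 against 12.7, 12.1 and 14.2 TPM in Panc1 and at 5.73, 4.88 and 4.44 against 61.6, 62.1 and 79.1 in Panc89, a change of 0.72 against −3.51, and *MUC13* (−2.58) and *MUC4* (−2.06) were at or under 0.0709 and 0.0633 TPM in the Panc1 clones.

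Of 8 connexins, which form gap junctions, 4 were higher and 1 lower. *GJA1* was at 0.859, 1.73 and 1.23 TPM in Panc1 Holoclone and 139, 123 and 157 in Panc1 Paraclone cells, with 39.8, 33.8 and 29.6 against 10.6, 32.4 and 13.98 in Panc89, changes of −5.96 and 0.97. In Panc89 the groups overlapped through Paraclone replicate 2. *GJB6* was at 9.89, 11.1 and 12.6 in Panc89 Holoclone, at or under 0.0150 in Panc89 Paraclone and between 0.622 and 1.15 TPM in the Panc1 clones.

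For signaling pathways, the lists split in both directions. In the TGF-beta and BMP list, 12 members were higher and 14 lower of 45. Among ligands 4 of 11 were higher and 1 lower, and 4 of 8 SMADs, the factors that carry the signal to the nucleus, were lower. Follistatin (*FST*), a secreted activin antagonist, and its relative *FSTL3* were opposite genes of different classes. *FST* was at 0.194, 0.462 and 0.0367 against 3.35, 2.98 and 3.50 TPM in Panc1 and at 205, 222 and 271 against 84.6, 21.1 and 50.7 in Panc89 (changes of −1.81 and 2.33). *FSTL3* was at 31.5, 26.7 and 35.01 against 14.8, 17.4 and 17.1 in Panc1 and at 16.9, 12.1 and 12.2 against 189, 94.8 and 148 in Panc89 (0.87 and −3.26). The ligand *GDF15* had 262, 759 and 1041 against 37.2, 7.05 and 45.8 TPM in Panc89 and an interaction of 3.41.

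WNT genes were lower in 14 and higher in 9 of 34 cases, with 5 of 10 ligands lower. The ligand *WNT9A* fell in Panc89 Holoclone cells by 2.77 on the log2 scale, from 28.9, 5.82 and 15.1 to 1.65, 0.800 and 1.18 TPM. The receptor *ROR2* was at 10.5, 9.15 and 11.3 TPM in Panc1 Holoclone and 0.0214, 0.0380 and 0.0221 in Panc1 Paraclone cells and at or under 0.0454 in Panc89. *LEF1*, a nuclear effector and target, had opposite changes of −0.75 and 2.52, and the inhibitor *NKD2* rose in both lines, by 0.85 and 3.77. In the Notch list (6 higher and 4 lower of 23), the ligand *JAG1* was among the opposite genes, at 14.9, 13.8 and 12.8 against 56.5, 50.6 and 44.4 TPM in Panc1 and 72.4, 158 and 174 against 41.5, 27.9 and 30.9 in Panc89. The target genes *HEY1* (1.85) and *HEYL* (−1.72) were called in different directions, *HEY1* for its change in Panc89 (1.76) and *HEYL* for its change in Panc1 (1.78).

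In the EGF receptor list, 7 of 25 were higher and 3 lower. Besides *AREG*, its neighbor *EREG* was at 0.144, 0.382 and 0.145 against 77.2, 52.1 and 46.4 TPM in Panc1 and at 60.7, 71.4 and 100.1 against 149, 198 and 109 in Panc89, so it was lower in Holoclone cells of both lines and by more in Panc1 (−5.58 and −0.96). *EPGN*, another ligand gene of the same cluster on chromosome 4, changed by −4.02 in Panc89 and by −0.33 in Panc1, where it stayed at or under 0.360 TPM. The ErbB ligand *NRG1* rose by 3.88 in Panc89 and 0.83 in Panc1. Of 24 genes around YAP and TEAD, 9 were lower and 3 higher, with *AMOTL2* (1.199 and −0.84), *ARHGAP29* (0.83 and −1.06) and *AXL* (0.50 and −1.40) on the lower side and *CCN2* (2.06), whose call was lost under some alternatives, on the higher.

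Stem cell associated genes were split into 7 higher and 9 lower of 25. The surface protein *CD24*, which has processed pseudogenes, was at 99.7, 112 and 95.8 against 0.830, 0.443 and 0.497 TPM in Panc1 and 7.72, 7.01 and 7.80 against 3.89, 3.68 and 2.57 in Panc89 (changes of 6.03 and 0.97). The aldehyde dehydrogenase *ALDH3A1* was at 1115, 1257 and 897 against 4.44, 14.1 and 19.6 in Panc89 and at most 0.348 TPM in the Panc1 clones. *KLF4*, a factor used in reprogramming, moved in opposite directions, with 2.94, 4.54 and 3.29 against 13.2, 14.3 and 16.1 in Panc1 and 107, 187 and 216 against 40.7, 54.6 and 37.99 TPM in Panc89. The chemokine receptor *CXCR4* was listed at 0 in all 3 Panc89 Holoclone libraries and was at 29.4, 8.91 and 24.2 TPM in Panc89 Paraclone cells, with parental Panc89 between them at 3.86, 3.46 and 4.31.

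For pancreas and gut lineage factors, 6 were higher and 8 lower of 17, with *GATA6* (−2.80 in Panc1 and 0.78 in Panc89) opposite and *CDX2* (2.51 and −0.26) and *ONECUT3* (−2.69 and −0.06) called in Panc1. HOX genes, which set position along the body axis, were lower in 10 and higher in 2 of 27 cases, among them *HOXC13* at 49.6, 52.1 and 53.2 against 27.6, 27.01 and 29.2 TPM in Panc1 and 6.58, 5.23 and 4.30 against 22.7, 14.2 and 17.96 in Panc89. *HOXB8* moved the other way (−0.60 and 1.06). In the IGF list (5 higher and 3 lower of 14), the imprinted neighbors *H19* and *IGF2* on chromosome 11 each moved mainly in 1 line. *H19* (interaction 7.81) was still among the opposite genes, with the higher Holoclone value in Panc89. The noncoding RNA *H19* was at 2471, 2075 and 2063 TPM in Panc89 Holoclone and 10.2, 23.2 and 13.1 in Panc89 Paraclone cells and between 130.3 and 327 in Panc1, while *IGF2* was at 3.33, 3.84 and 3.34 against 90.2, 109 and 139.9 in Panc1 and at most 0.250 TPM in the Panc89 clones.

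Among chemokines and interleukins, 8 were higher and 6 lower of 29, with *CCL2* at 121, 126 and 108 against 1106, 642 and 579 TPM in Panc1 and at most 0.0618 in Panc89, *IL6* called in Panc89 alone (changes of 0.10 in Panc1 and −3.88 in Panc89) and *CXCL2* opposite (−1.64 and 1.43). S100 genes had 3 higher and 3 lower of 12, and *S100A16* was lower in Holoclone cells of both lines, by far more in Panc1 (−5.05 and −1.200). Of 6 metallothioneins, near-identical genes with uncertain values, 3 were lower and 1 higher, and *MT1M* was at 9.93, 11.9 and 10.9 TPM in Panc1 Holoclone cells and listed at 0 in the other 9 clone libraries.

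Cell cycle and cholesterol genes had few calls in the interaction. Of 40 S phase and 46 G2/M phase genes, 1 and 0 were higher and 1 and 1 lower in limma-trend. Called were *CCNE1* (−1.77), *TIPIN* (1.59) and *ECT2* (−1.66), the last with a call that was lost under some alternatives. At an unadjusted p under 0.05, again 0 G2/M phase genes were higher and 1 was lower. The cell cycle lists rested on Panc89 Paraclone replicate 2. Without it, 3 S phase and 5 G2/M phase genes were higher in the interaction, and 19 S phase and 35 G2/M phase genes were higher in Panc89 Holoclone cells, against 3 and 1 with all libraries. The median clone change of S phase genes was 0.62 in Panc1 and 0.61 in Panc89, where it was 1.25 without that library and 0.0996 without Panc89 Holoclone replicate 1. For G2/M phase genes it was 0.54 and 0.75, and 1.62 in Panc89 without Paraclone replicate 2. Cholesterol synthesis had 1 lower of 26 (*IDI1*, −1.198), whose call was lost under some alternatives, among them both other scalings. The 50 tested genes around *IDI1* on chromosome 10 had a median interaction of −0.61. The list had medians of −0.53 and −0.43, with 8 genes lower in Panc1 and 9 in Panc89 Holoclone cells. The Panc1 count was 1 without Holoclone replicate 1, Paraclone replicate 2 or Paraclone replicate 3 and 4 without Holoclone replicate 3, and the Panc89 count was 5 without Holoclone replicate 3. Nuclear genes of oxidative phosphorylation had 3 higher and 5 lower of 41, with 6 higher and 2 lower under upper quartile scaling. This list had 10 lower without Panc89 Holoclone replicate 1 and 2 or 3 lower without each of 7 other clone libraries. Ribosomal proteins had 7 and 5 of 42, with −1.10 for *RPS21* and 1.01 for *RPL37*. Of all ribosomal proteins tested, 16.7% were thus higher and 11.9% lower, and 4 were higher without Panc1 Paraclone replicate 2, Panc89 Holoclone replicate 2 or Panc89 Holoclone replicate 3.

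Some smaller counts also depended on 1 library. The Notch list had 2 lower members without Panc1 Holoclone replicate 1 or 3, Panc1 Paraclone replicate 1, or Panc89 Paraclone replicate 1 or 3. Matrix proteases had 3 lower without Panc1 Holoclone replicate 1, Panc1 Paraclone replicate 1 or Panc89 Holoclone replicate 3. The EGF receptor list had 5 lower and fatty acid synthesis 5 higher without Panc1 Paraclone replicate 1, and hypoxia genes had 5 lower without Panc89 Holoclone replicate 1.

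The parental means, which do not enter the interaction, were compared with each other for the members. Over all genes tested, parental Panc89 and Panc1 differed in 10623 (66%), 4421 higher (27.5%) and 6202 lower (38.5%) in Panc89. Of the 346 genes higher in Panc89 Holoclone cells, 150 were higher and 109 lower in parental Panc89 (74.9% called), and of the 445 with the reverse signs 115 were higher and 222 lower (75.7% called). Thus in the first class more members were higher than lower in parental Panc89, while among all genes and in the second class more were lower. Genes that rose in Panc1 Holoclone cells alone were 25 higher and 109 lower, those that fell there alone 54 and 39. For the genes of Panc89 alone the numbers were 41 and 76 of 175 and 33 and 53 of 113.

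Within each line, the parental mean was then placed between the Holoclone and Paraclone means of each member. In Panc1, it was nearer to the Holoclone mean for 71.7% of the first and 66.1% of the second opposite class, against 64.4% of all genes called lower and 71.4% of all genes called higher in Panc1 Holoclone cells. In Panc89, it was nearer to the Holoclone mean for 39.3% and 53.03%, against 37.9% and 52.8%. These shares of members were within 8 percentage points of those of all called genes of the same direction. *SOX21*, for example, was at 1.195, 3.46 and 1.62 TPM in parental Panc1, near the Holoclone libraries, and at 17.7, 11.2 and 12.8 in parental Panc89, between both clones, whereas *STK26* was at 34.1, 34.4 and 30.1 in parental Panc1.

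The interaction differed between chromosomes, as placed by GENCODE 44 on GRCh38. On chromosome 22, 148 of 367 genes (40.3%) were higher and 20 lower, with a median interaction of 0.53 and medians of −0.19 in Panc1 and 0.25 in Panc89. Levels of its genes were taken relative to the mean of all libraries of the same line, so they do not compare the lines. Their median was 0.01, −0.11 and −0.04 in the Panc1 Holoclone and 0.21, 0.14 and 0.16 in the Panc1 Paraclone libraries. In Panc89 it was 0.32, 0.08 and 0.04 in the Holoclone and −0.12, −0.08 and −0.16 in the Paraclone libraries. Holoclone and Paraclone libraries did not overlap in either line. On chromosomes 10, 14 and 17 the medians were −0.49, −0.42 and −0.36, with 38.08%, 33.9% and 29.8% of genes lower, and on chromosome 5 the median was 0.23.

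Of the opposite genes higher in Panc89 Holoclone cells (2.15% of all genes tested), 27 lie on chromosome 22 and 36 on chromosome 5. Of those higher in Panc1 Holoclone cells (2.77%), 2 and 10 lie there. Chromosomes 14 and 17 hold 36 and 41 genes of this second class against 9 and 11 of the first. The genes tested on chromosomes 22, 5, 14 and 17 numbered 367, 710, 534 and 974. In windows of 50 consecutive genes, medians ranged from −1.21 on chromosome 9 (33576380 to 36487548) to 1.05 on chromosome 22 (24417879 to 30627271), around a median window of −0.104. In the window of chromosome 9, 29 of 50 genes were lower and 14 were opposite genes higher in Panc1 Holoclone cells, and its medians were 0.58 in Panc1 and −0.40 in Panc89. These chromosomes and windows were chosen after their values were seen, and the part of DNA copy number in them was not tested. By contrast, *CADM1* and *SOX21* lay among neighbors with median interactions of 0.06 and −0.05.

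**Figure D5:**
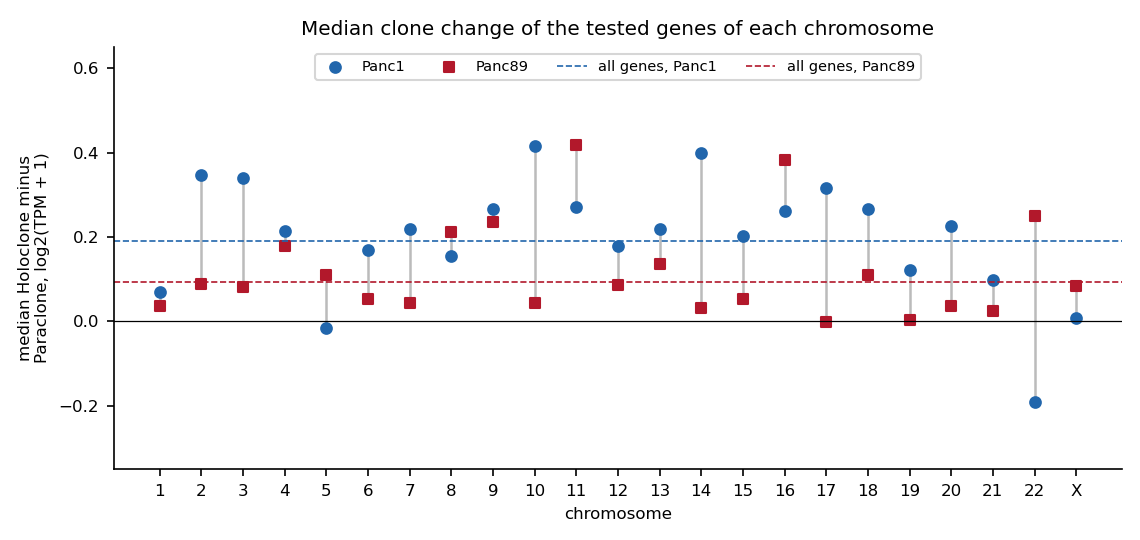
Median clone change (Holoclone minus Paraclone, log2(TPM + 1)) of the tested genes of each chromosome in Panc1 (blue circles) and Panc89 (red squares), with dashed lines at the medians of all genes. Chromosome 22 has the widest gap with Panc89 above Panc1. Most chromosomes lie with Panc1 above Panc89, and chromosomes 10, 14 and 17 have the widest gaps of this kind.

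As a check of the labels, 8 epithelial markers summed to between 2699 and 6969 TPM in every clone library. The 4 mesenchymal-like markers summed to 2049.8 to 5059 TPM in Panc1 and 7.66 to 31.6 TPM in Panc89 clones. By these sums, epithelial markers were present in both lines and mesenchymal-like markers in Panc1. Single members could differ from the sum, as *CDH1* was low in the Panc1 clones and *EPCAM* in Panc1 Paraclone cells. In the interaction, 2 of the 8 epithelial markers were higher and 5 lower, and 3 of the 4 mesenchymal-like markers were lower. Of markers of cells that should be absent, endothelial markers summed to at most 8.90 TPM and fibroblast markers to at most 26.2 TPM in the clone libraries, with *COL1A1* (−2.84), *PECAM1* (−1.42) and *CDH5* (−0.92) called in the interaction. Of the 6 immune markers, 2 were expressed enough to be tested. For the interaction, 0 of these were called in limma-trend (0 also at an unadjusted p under 0.05). Within the lines, 1 was called lower in Holoclone cells in Panc1 and 1 in Panc89. The 6 markers summed to 54.1 to 70.9 TPM in Panc1 Holoclone and 124 to 152 TPM in Panc1 Paraclone libraries. In Panc89 the sums were 18.7 to 26.1 TPM in Holoclone and 34.6 to 63.2 TPM in Paraclone libraries. To check for cells of the other line, 20 genes typical of the parental cells of each line were summed, and they reached at most 9.75 TPM in the clones of the other line, against at least 3340.4 TPM in their own.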

How the data were processed

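RNA of 18 cultures was sequenced, with 3 passages as replicates in each of 6 groups that were taken from the sample labels. The authors prepared stranded mRNA libraries, sequenced them in pairs on a NovaSeq, quantified transcripts with kallisto 0.46.1 against Ensembl transcripts of GRCh38 and summarized them per gene. The deposited values are log2(TPM + 1) of 40266 gene symbols, a log2 scale with a pseudocount of 1, and were used as the authors deposited them. Near-identical genes share reads in such estimates, and TPM keep no depth.

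The 16093 genes that reached 1 TPM in 3 or more libraries were fitted with limma-trend (limma 3.58.1, R 4.3.3), with a mean for each group and a residual spread shared by all 18 libraries, two-sided, with Benjamini-Hochberg adjustment over all genes and a threshold of 0.05. The interaction used the 12 clone libraries. Named genes were, per opposite class, the 6 with the largest smaller change and, per class of 1 line, the 4 with the largest interaction (a group mean of at least 10 TPM, no overlap of replicates where the gene moved and no accession-like symbol), 8 markers, and up to 4 called members of each of 39 lists. The members and lists were chosen with earlier results of these data known. Gene positions were matched for 15875 of the tested genes. Where RefSeq lists several starts, the start nearest to the annotated 5′ end was used. The alternatives were another pseudocount, other filters, scalings and residual models, the clone libraries alone, replicate number as a block, and leaving out each clone library. Values of some genes that the rule names are not reported here.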

Additional observations from a re-analysis of the deposited data

Results flagged for a closer look

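The genes below stood out because the test of the difference between the lines itself, the interaction in limma-trend, passed the adjusted threshold of 0.05. Values are the Panc89 minus the Panc1 clone change on the log2(TPM + 1) scale, and a positive value means that the Holoclone minus Paraclone difference was higher in Panc89. Since the genes were selected by this test, the values describe them and add no evidence.

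Among genes with opposite changes, the values were 8.26 for *CADM1*, 6.80 for *SOX21*, 4.85 for *FHL1*, 4.80 for *COL4A6*, 4.47 for *APOL3* and 4.25 for *PTGER4*. In the reverse class they were −5.76 for *CYBRD1*, −5.09 for *AATK*, −4.88 for *LTBP2*, −4.61 for *FLNC*, −4.25 for *IL11* and −3.91 for *CAMK2N1*.

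For genes that moved in Panc89 alone, the values were 4.54 for *STOM*, 4.39 for *FOXA2*, 3.81 for *FAM43A* and 3.56 for *TP53I11*, and −4.70 for *PMEPA1*, −3.62 for *L1CAM*, −3.13 for *SERPINB1* and −2.88 for *RAB31*. For genes that moved in Panc1 alone, they were −5.10 for *STK26*, −4.70 for *CRIP1*, −4.18 for *NUP210* and −3.997 for *DSG2*, and 5.15 for *AREG*, 4.24 for *KIAA0040*, 4.11 for *RBPMS* and 3.56 for *ELF3*. Of the further markers of the study, *SOX2* (4.02), *OVOL2* (−2.42), *NES* (−2.19), *ZEB2* (−1.47), *ZEB1* (−1.17) and *CDH1* (0.90) passed.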

How the results depend on the processing

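All 28 genes named for their class kept the call and direction of the interaction in each of the 22 alternatives that tested them, and no named gene changed direction. Of all 157 called genes named by the rule, 143 kept the call wherever they were tested. The genes whose call was lost in 1 or more alternatives included *CCN2*, *IDI1*, *CHAC1*, *S100A2*, *MT1E*, *ECT2*, *SDHC*, *ZEB1*, *COX6C*, *CDH5*, *S100A14*, *MUC20* and *ELOVL5*. With a log2 difference over 1 required, 1538 genes were higher and 1754 lower in the interaction, and 82 and 50 were opposite. Genes that changed in Panc1 alone numbered 80 higher and 192 lower under upper quartile scaling, and 69 and 206 under median-of-ratios scaling. Without the genes of chromosomes 22, 14, 10 and 17, an alternative chosen after the data were seen, 129 were higher. Leaving out 1 clone library at a time, the interaction called 2054 to 2741 genes higher and 2683 to 3735 lower, the opposite classes held 263 to 414 and 312 to 615 genes, the Panc89 classes 150 to 281 higher and 93 to 190 lower, and the Panc1 classes 172 to 278 higher and 112 to 133 lower. Replicate numbers did not pair the samples (correlations of deviations from −0.318 to 0.190 over 18 pairs), and with a replicate block within each line 2133 genes were higher and 2962 lower. Fewer samples remain in the fits without a library. Depth could not be judged from TPM, and low genes have understated changes.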
